A study of Mus musculus with 22 samples.

Results

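The solute carriers are membrane proteins that move amino acids, sugars, ions, metals, vitamins and nucleotides across cell and organelle membranes, and their mouse genes have symbols that begin with Slc and the number of a family. The genes described here are those whose single annotated symbol on either of the 2 chips used was Slc, a family number, a letter and a member number, without Slc34a2. Of 107 such genes, 69 from 31 families passed the filter on low signals, which asked for at least 2 of 11 ages above the chip's median signal, and 38 did not. The probe set with the highest mean over the ages stood for each gene, which put 51 of the 69 on chip A and 18 on chip B.

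The study followed normal lungs of Swiss Webster mice, an outbred stock, through development with no treatment. Whole lungs were taken at embryonic days 12, 14, 16 and 18 (E12 to E18), at postnatal days 1, 4, 7, 10, 14 and 21 (P1 to P21), and from adults, whose age in days the labels do not give. At each age RNA of at least 3 lungs was combined, and this pool was hybridised once to each chip, giving 22 arrays. An age therefore has 1 value per gene and no replicate, and the errors below are the scatter of the 4 embryonic (n = 4) and the 7 postnatal (n = 7) ages.

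Solute carriers do not hydrolyse ATP. Many couple their substrate to the sodium gradient that the sodium pump maintains, others exchange 1 substrate for another, and others let a substrate run down its own gradient. In the lung they bring amino acids, vitamin C, choline and glucose to growing and surfactant-making cells, and at birth the epithelium turns from secreting fluid to absorbing it, a change that depends on ion transport. A large family of mitochondrial carriers links the cytosol with the matrix, and the carriers of nucleotide sugars supply the endoplasmic reticulum and the Golgi apparatus.

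Promoters of RefSeq (build GRCm38.p6, 250 bases before to 50 after the first listed start) were matched for 57 of the 69 genes. The 4 below are shown because 3 belong to genes that rose at least 2-fold after birth, from 3 different families, and the last to 1 of the 2 genes that fell. Each is printed 5′ to 3′ on the strand of its gene, in lower case, and the capitals mark 3 of the 4 motifs searched on both strands, the GC box GGGCGG, the CCAAT box CCAAT and the E-box CACGTG.
Slc23a2, chr2:132145271-132145570, minus strand: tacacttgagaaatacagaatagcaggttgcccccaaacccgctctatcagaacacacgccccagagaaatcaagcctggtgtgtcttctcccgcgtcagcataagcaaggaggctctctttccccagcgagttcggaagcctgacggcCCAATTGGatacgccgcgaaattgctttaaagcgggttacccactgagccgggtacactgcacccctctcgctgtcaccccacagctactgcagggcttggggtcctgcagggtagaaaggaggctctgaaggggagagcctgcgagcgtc
Slc29a1, chr17:45599569-45599868, minus strand: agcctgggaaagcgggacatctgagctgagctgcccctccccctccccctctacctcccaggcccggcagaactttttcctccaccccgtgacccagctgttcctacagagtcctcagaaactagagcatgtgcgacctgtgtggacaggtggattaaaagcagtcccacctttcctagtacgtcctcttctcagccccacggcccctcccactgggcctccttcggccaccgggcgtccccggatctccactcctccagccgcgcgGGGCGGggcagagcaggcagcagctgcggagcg
Slc12a7, chr13:73763410-73763709, plus strand: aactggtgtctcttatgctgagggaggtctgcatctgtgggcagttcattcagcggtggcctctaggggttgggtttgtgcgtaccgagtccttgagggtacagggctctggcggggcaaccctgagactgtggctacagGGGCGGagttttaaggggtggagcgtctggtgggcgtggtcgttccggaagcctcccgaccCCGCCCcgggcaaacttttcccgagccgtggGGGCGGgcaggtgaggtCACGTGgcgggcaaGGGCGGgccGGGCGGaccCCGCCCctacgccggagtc
Slc25a17, chr15:81360716-81361015, minus strand: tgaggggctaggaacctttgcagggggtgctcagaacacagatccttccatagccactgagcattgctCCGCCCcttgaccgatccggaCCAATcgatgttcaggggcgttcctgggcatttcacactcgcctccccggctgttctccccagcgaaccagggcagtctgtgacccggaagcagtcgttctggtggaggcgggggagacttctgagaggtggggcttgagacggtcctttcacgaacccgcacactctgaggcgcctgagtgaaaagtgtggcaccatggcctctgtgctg
The capitals in Slc23a2 are a CCAAT box and its copy on the other strand, which overlap. The Slc12a7 window held 6 GC boxes and 1 E-box, that of Slc29a1 held 1 GC box, and that of Slc25a17 held 1 GC box and 1 CCAAT box. Over the 57 promoters, 43 (75.4%) held a GC box, against 64.7% of 3307 promoters of all genes that passed the filter and 35.9% of all 27025 promoters. A CCAAT box stood in 33.3%, 37.7% and 37.9% of these 3 sets. The E-box stood in 12.3%, 10.8% and 7.24%, and the TATA box TATAAA in 7.02%, 8.98% and 14.2%. Among the 9 matched genes that were higher after birth, 5 held a GC box and 1 a CCAAT box. A match is a description of the letters and not a site of binding.

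The first comparison asked which solute carriers differed between the embryonic and the postnatal lung. After birth 13 of the 69 genes were higher, 2 were lower and 54 did not pass (limma, Benjamini-Hochberg adjustment over 4130 genes, threshold 0.05). Over all 4130 genes tested, 16.8% were higher, 14.2% lower and 31% passed in either direction, against 18.8%, 2.9% and 21.7% of the solute carriers. The median difference was 0.15 (log2) for the solute carriers and 0.01 for all genes, and 48 of 69 differences (69.6%) were above 0, against 50.6% of all genes. In 4 solute carriers (5.8%), Slc6a6, Slc23a2, Slc22a23 and Slc35b1, the 7 postnatal and 4 embryonic signals did not overlap, against 12% of all genes. The 13 genes that rose carry taurine (Slc6a6), vitamin C (Slc23a2), nucleosides (Slc29a1), neutral amino acids (Slc1a5), creatine (Slc6a8), potassium with chloride (Slc12a7), calcium (Slc8a1), sugar (Slc50a1) and nucleotides (Slc35b1), or are the choline transporter-like Slc44a2, the organic ion family member Slc22a23, the nucleotide sugar family member Slc35e4 and Slc66a2. The 2 that fell were the glucose carrier Slc2a4 and Slc25a17, a carrier of the peroxisome membrane. The counts changed with the pools used: 7 were higher and 0 lower without E12, 6 and 1 without E14, 21 and 5 without E18, and 7 and 0 without both E12 and P7. Without E16 or without P14, 1 was lower. The shares of all genes called without these pools are not given here, so these changes cannot be read as particular to the solute carriers.

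**Figure D1:**
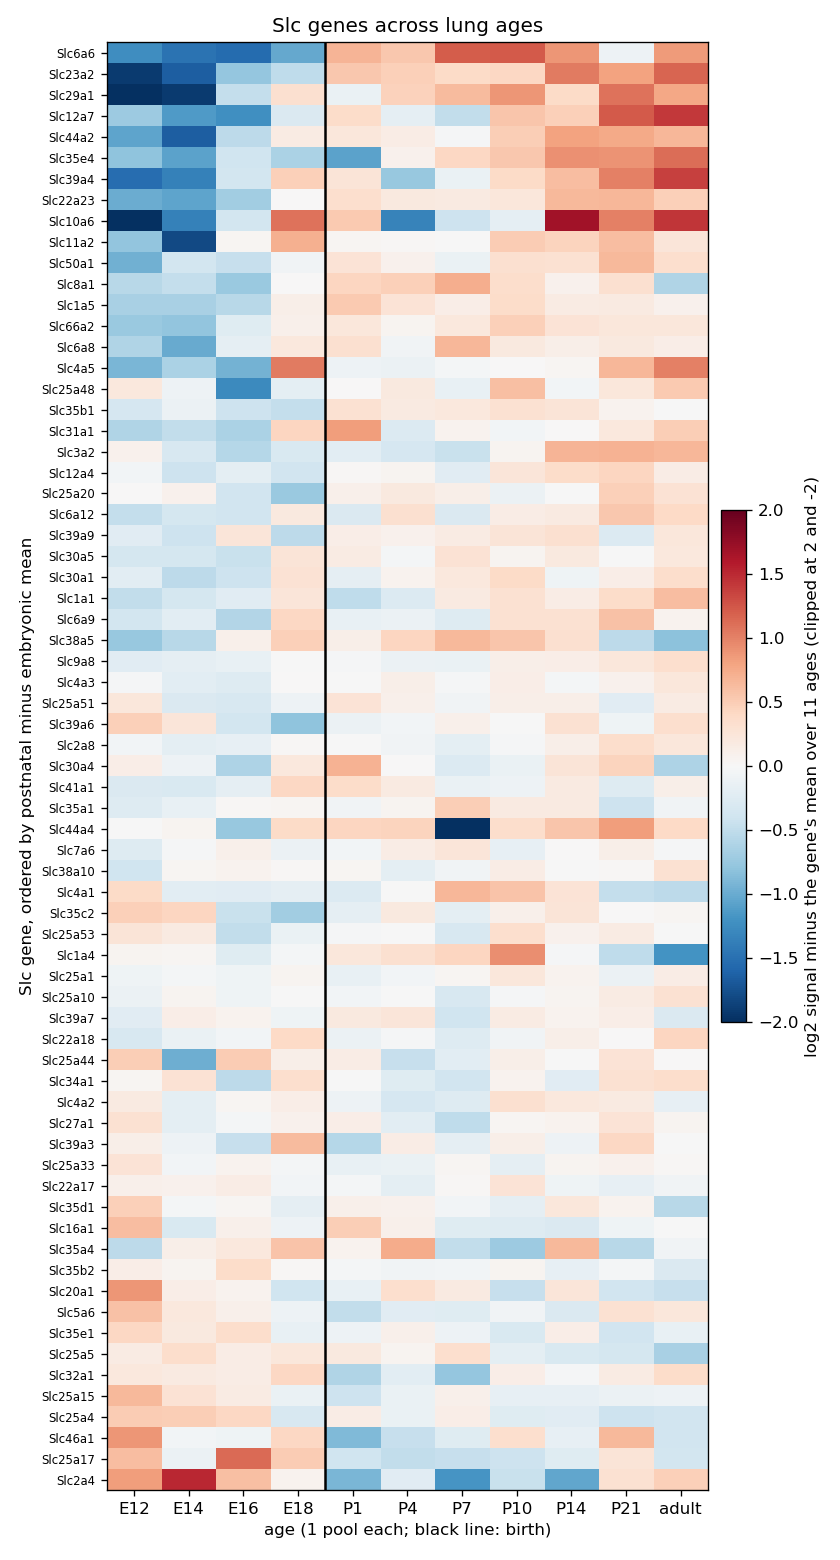
Heat map of the 69 solute carrier genes (rows, ordered by the difference between eras) over the 11 ages (columns), coloured by log2 signal minus the gene's mean. The top rows are mostly blue before birth and red after it, and the bottom row, Slc2a4, is red at E12 to E16, while most rows in the middle are pale.

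The filter bears on these counts. Of the 69 genes, 44 lay above the chip median at all 11 ages, and 6 passed through postnatal ages only (Slc23a2, Slc12a7, Slc35e4, Slc25a48, Slc1a1 and Slc1a4), so that they had to be low before birth. Slc23a2, Slc12a7 and Slc35e4 are among the genes called higher after birth, so the filter favoured their calls. No gene passed through embryonic ages alone. Just inside the filter, with 2 ages above the median, were Slc46a1, a folate carrier, Slc39a3, a zinc importer, Slc1a1, a glutamate carrier, and the mitochondrial family member Slc25a48. Just outside, with 1 age above it, were the peptide carrier Slc15a2, Slc25a47, Slc17a1 and the nucleoside carrier Slc29a2. Slc15a2, for example, had its highest signal of 308 at P1 and 64.6 at P10, against a chip median of 250.3. The 38 genes below the filter included the glucose carriers Slc2a1 and Slc2a3, the cationic amino acid carrier Slc7a1 and the sodium, potassium and chloride carrier Slc12a2, and 12 of the 38 lay at or under the floor of the chip at all ages, among them the bile acid carrier Slc10a1.

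Marker genes of cell types changed over the same ages. All 8 measured macrophage markers were higher after birth, and their summed signal was 2927 to 15337 over the embryonic ages and 15148 to 20931 over the postnatal ones. Of 8 endothelial markers 7 were higher (sums of 7491 to 24036 and 22944 to 36194), as were 7 of 12 heart and skeletal muscle markers (7286 to 19160 and 15903 to 34709) and 3 of 6 lung epithelium markers (3730 to 21970 and 17819 to 30356). Of 21 cell cycle genes 19 were lower, with sums of 14097 to 42694 before birth and 6406 to 22027 after it. No kept marker of the macrophage, endothelial, muscle or epithelial lists was at 0 at any age. The P21 pool stood apart in Acta1, skeletal muscle actin, at 8466 against at most 1516 at the other ages. In whole lung, fewer cells of a type and less RNA per cell cannot be told apart, and the part of these cell types in the changes below was not tested. The P21 pool was checked by leaving it out, which gave 10 solute carriers higher and 2 lower, without a share of all genes to set beside them.

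**Figure D2:**
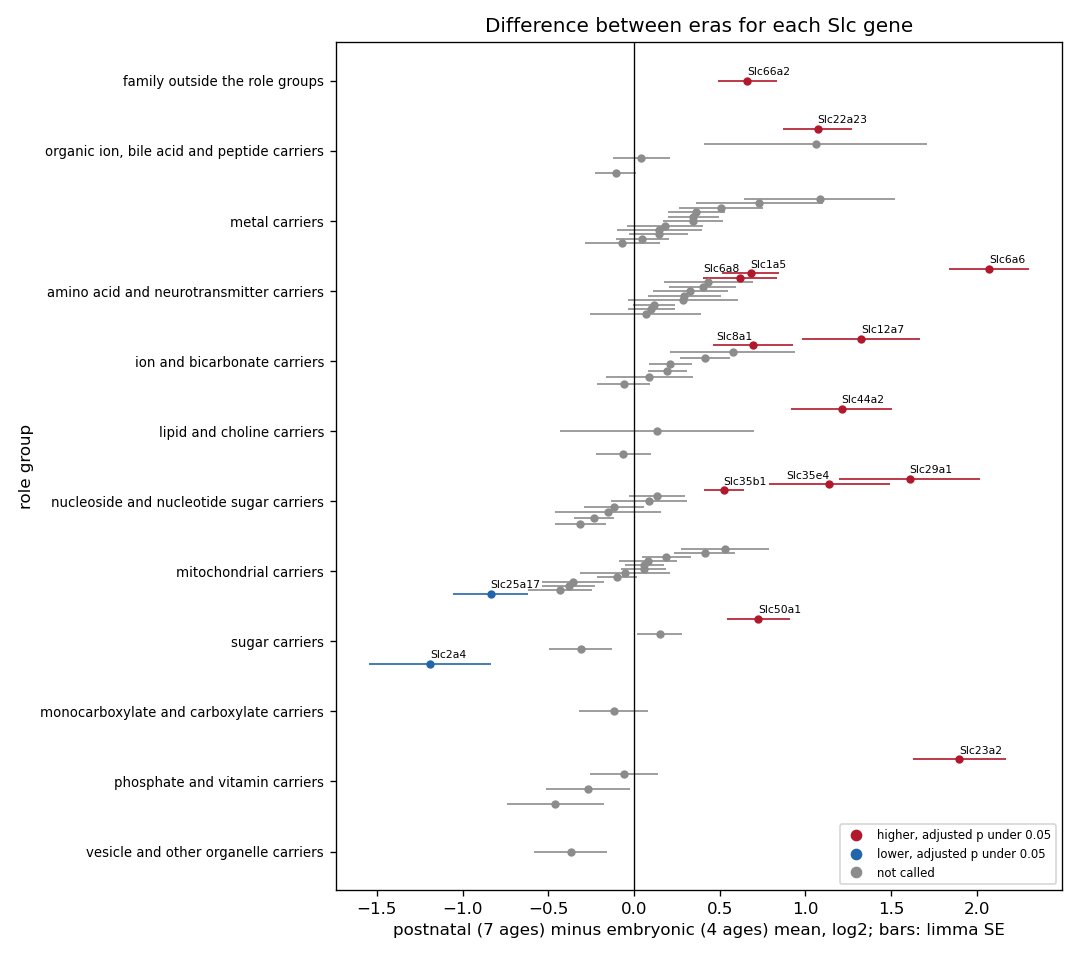
Postnatal minus embryonic mean (log2, horizontal axis) of each solute carrier gene, arranged by role group, with bars for limma's SE. The 13 genes higher after birth are in red and named, the 2 lower in blue, and the metal carriers hold none of either.

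Among 11 carriers of amino acids and neurotransmitters 3 rose after birth, none fell and 8 did not pass, with a median difference of 0.33 (log2). Slc6a6, the sodium-coupled carrier of taurine and beta-alanine, had signals of 520.3, 444, 426 and 609 at E12, E14, E16 and E18, and of 1147 to 2878 after birth (median 2226). The lowest postnatal pool, P21, was above the highest embryonic one, E18. The difference was 2.07 ± 0.23 (log2, SE, adjusted p = 0.000566), the largest rise among the 69 genes, and most of it fell in the step from E18 to P1, where the signal went from 609 to 1974, 3.24-fold. All 3 probe sets of Slc6a6 had postnatal means above their embryonic means, by 2.07, 2.54 and 1.44 (log2). The correlations of the other sets with the first over the 11 ages were 0.948 and 0.915, on the same arrays, and the call held under all 20 alternatives.

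Slc1a5, the exchanger of glutamine and other neutral amino acids, had signals of 712, 718, 759 and 1221 before birth and 1187 to 1603 after it (median 1274). The E18 pool alone reached the postnatal range. The difference was 0.68 ± 0.16 (adjusted p = 0.0119, and 0.0512 without E14). Slc6a8, the creatine carrier, stood at 266, 201, 356 and 469 before birth and at 386 to 642 after it (median 461), so that E18 overlapped the postnatal ages. Its difference of 0.62 ± 0.22 (adjusted p = 0.0469) passed under 8 of 20 alternatives and missed the threshold without E12 (adjusted p = 0.137) or without E14 (adjusted p = 0.169). Slc3a2, the heavy chain that brings several amino acid carriers to the cell surface, kept to 2092 to 3269.6 from E12 to P10 and stood at 4956, 4998 and 4915 at P14, P21 and in the adult. The 3 oldest pools were thus above all 8 younger ones. It rose along the age order (adjusted p = 0.0232) but not between eras (adjusted p = 0.218), and the line missed the threshold without E16, P14, P21 or the adult (adjusted p of 0.0518, 0.0541, 0.0654 and 0.0806). Probe sets of Slc3a2 are marked as shared within a gene family, and near-identical transcripts can add to their signal.

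Of 4 carriers of phosphate and vitamins, Slc23a2 was called, and Slc46a1, Slc20a1 and Slc34a1 were not. Slc23a2, which takes up vitamin C together with sodium, had signals of 67.4, 87, 159 and 192 before birth and of 357 to 611 after it (median 396). The eras did not overlap, the E12 signal lay under the floor of 72.3 and was set to it, and the adult was highest. The difference of 1.90 ± 0.27 (adjusted p = 0.00154) held under all 20 alternatives, between 1.37 and 2.13. From E18 to P1 the signal went from 192 to 396, 2.06-fold, and no embryonic age was above the chip median. Slc20a1, a phosphate carrier, went the other way from 682 at E12 to 269 in the adult, with a difference of -0.27 ± 0.25 that did not pass (adjusted p = 0.426).

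**Figure D3:**
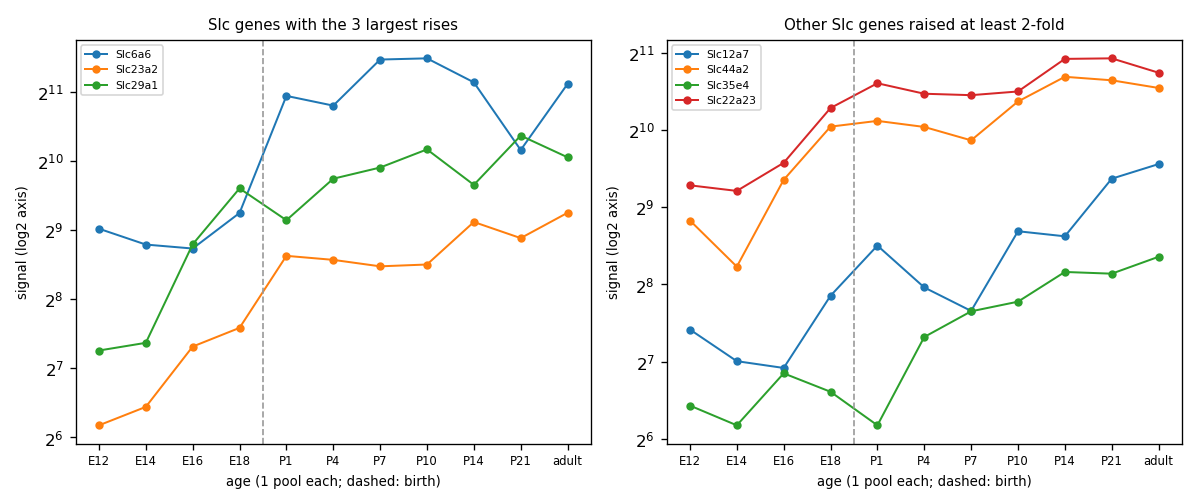
Signal (log2 axis) over the 11 ages for the 3 largest rises, Slc6a6, Slc23a2 and Slc29a1 (left), and for Slc12a7, Slc44a2, Slc35e4 and Slc22a23 (right), with 1 point per pool and a dashed line at birth. Slc6a6 steps up at P1, whereas Slc29a1 and Slc44a2 go up from E14 to E18 and vary after birth.

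Among 9 carriers of nucleosides and nucleotide sugars 3 rose and none fell. Slc29a1, the equilibrative nucleoside carrier that takes up adenosine, had signals of 153, 166, 445 and 780.0 before birth and 567 to 1325 after it (median 962). E12 and E14 were the 2 lowest pools, E18 lay within the postnatal range, and the step from E14 to E16 was 2.69-fold. The difference of 1.61 ± 0.41 (adjusted p = 0.0145) missed the threshold without E12 (adjusted p = 0.0562) or without E14 (adjusted p = 0.0598). Slc35b1, a nucleotide carrier of the endoplasmic reticulum, had signals of 1061, 1227, 999 and 962 and then 1329.6 to 1651 (median 1549). All 7 postnatal pools were above all 4 embryonic ones, by a small amount (0.52 ± 0.12, adjusted p = 0.00907), and with the ages divided between E16 and E18 the adjusted p was 0.0744. Slc35e4 stood at 86.3, 63.9, 115 and 97.7 before birth and at 41.1 to 328 after it (median 219), with P1 the lowest pool of all. Its difference of 1.14 ± 0.35 (adjusted p = 0.0301) passed under 8 of 19 alternatives, and a higher floor, the 40th percentile, gave an adjusted p of 0.0848. Leaving out E12, E14, P10, P14, P21 or the adult in turn also ended its call, and no embryonic age was above the chip median.

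Of 8 carriers of ions and bicarbonate 2 rose, none fell and 6 did not pass. Slc12a7, which carries potassium together with chloride, had signals of 171, 129, 121 and 231 before birth and 202 to 755 after it (median 395). E18 overlapped P7, and P21 and the adult, at 662 and 755, were the highest pools. The difference was 1.32 ± 0.35 (adjusted p = 0.0157, and 0.0593 without E14). No embryonic age of Slc12a7 was above the chip median, so the filter favoured a rise. Slc8a1, the sodium and calcium exchanger of heart muscle and other cells, stood at 197, 208, 172 and 289 before birth and at 189 to 475 after it (median 366). P7 was highest and the adult lay within the embryonic range. Its difference of 0.69 ± 0.23 (adjusted p = 0.0413) passed under 8 of 20 alternatives and missed the threshold without E12 (adjusted p = 0.111), E14 (0.103) or E16 (0.116). Further probe sets of Slc8a1, below the filter, did not show the rise. A set on chip A was at or under the floor at all 11 ages, and a set on chip B differed by -0.42 (log2). The summed heart and skeletal muscle markers were 7286 to 19160 before birth and 15903 to 34709 after it. Of the 12 markers 7 were higher after birth, as was Slc8a1. Within the postnatal ages the sum was lowest at P7 (15903), where Slc8a1 was highest. It stood at 20854 in the adult, the lowest postnatal pool of Slc8a1. The part of muscle cells in the Slc8a1 course was not tested. The related carrier Slc12a4 and the proton exchanger Slc9a8 rose along the age order (adjusted p of 0.0301 and 0.0241), from 481 to 552 and from 309 to 453 between E12 and the adult. The line of Slc12a4 missed the threshold without E14 (0.0907), E16 (0.0533), P10 (0.0515), P14 (0.0673) or P21 (0.0787), and that of Slc9a8 without E12 (0.0649), E14 (0.0526) or the adult (0.0869) and with quantile normalization (0.0555).

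Of the 3 carriers of lipids and choline, Slc44a2 rose. This choline transporter-like protein had signals of 455, 300.5, 655 and 1056 before birth and 934 to 1652 after it (median 1324). The signal went up from E14 to P1, was lower again at P7 and highest at P14, and E18 lay within the postnatal range. The difference was 1.21 ± 0.30 (adjusted p = 0.0125, and 0.0513 without both E12 and P7). Slc44a4, a related carrier, stood between 273 and 819.9 at 10 ages and at 66.9, under the floor, at P7 alone. That single pool gave the largest folds of any neighbouring ages among the solute carriers, 8.69-fold down from P4 to P7 and 8.17-fold up from P7 to P10, both set against the floor.

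Among 4 carriers of organic ions, bile acids and peptides, Slc22a23 rose from 624, 593, 763 and 1248 before birth to 1401 to 1949.9 after it (median 1559), and the eras did not overlap. The difference of 1.07 ± 0.20 (adjusted p = 0.00484) held under all 20 alternatives. Slc10a6, which takes up steroid sulphates, moved up and down more than the others, with 39.1, 118, 232 and 638 before birth and 119 to 961 after it (median 432). P4 lay near E14, and P14 was the highest pool. Its difference of 1.06 ± 0.65 did not pass (adjusted p = 0.229), although it rose along the age order (adjusted p = 0.0147, and 0.081 without E12). Slc66a2, a family member with PQ-loop repeats that belongs to none of the role groups, had 546, 526, 774 and 975 and then 946 to 1267 (median 1067). E18 overlapped the postnatal pools, and the difference was 0.66 ± 0.17 (adjusted p = 0.0157, with 0.0614 without E12 and 0.0639 without E14).

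The 4 measured members of the sugar carrier families held 1 gene called in each direction. Slc50a1, a sugar exporter, had signals of 348, 525, 491 and 646 before birth and 617 to 1056 after it (median 835). E18 overlapped P7, and the difference was 0.72 ± 0.18 (adjusted p = 0.0142, and 0.0525 without E12). Slc2a4, the glucose carrier that insulin brings to the surface of muscle and fat cells, had signals of 299, 476, 252 and 176 before birth and 73.6 to 233 after it (median 122). P7 was the lowest pool, P21 and the adult lay within the embryonic range at 205 and 233, and the spline was called (adjusted p = 0.00942). The difference was -1.19 ± 0.36 (adjusted p = 0.0265), with 0.0748 without E12, 0.103 without E14, 0.0509 without E16 and 0.0512 without P14. Slc5a6, the carrier of biotin and pantothenate, which the family number puts in this group, went from 947 at E12 to 450.4 at P1 and stood at 785 at P21. The spline was called (adjusted p = 0.0212, and 0.131 without E12) and the difference between eras was not (-0.31 ± 0.18, adjusted p = 0.209).

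Of 11 metal carriers none was called between eras, with a median difference of 0.34 (log2), and 3 rose along the age order. Slc39a4, a zinc importer, had signals of 225, 252, 502 and 895 before birth and 379 to 1669 after it (median 843). It dipped at P4 and was highest in the adult. Its difference of 1.08 ± 0.44 did not pass (adjusted p = 0.0774), whereas the line (adjusted p = 0.00158) and the spline (adjusted p = 0.00189) were called and held under every alternative run. Slc11a2, the importer of ferrous iron, stood at 61.6, under the floor, at E14 and at 259.7 at E16. Its difference was 0.73 ± 0.37 (adjusted p = 0.149), and its rise along the age order (adjusted p = 0.0382) missed the threshold without E12 (0.11), E14 (0.0984), P10 (0.0604), P14 (0.0643) or P21 (0.0718). Another probe set of Slc11a2, below the filter, kept to 157 to 209 over all ages, with a difference of -0.10 (log2). The zinc exporter Slc30a1 rose on the line as well (adjusted p = 0.0485), from 332 at E12 to 489 in the adult. That call was lost with quantile normalization (0.126), an offset in place of the floor (0.0513) or no filter (0.0553), and without any 1 of E12 (0.0822), E14 (0.15), E16 (0.101), P1 (0.0604), P4 (0.0621), P7 (0.0633), P10 (0.0788), P21 (0.0577) or the adult (0.113).

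**Figure D4:**
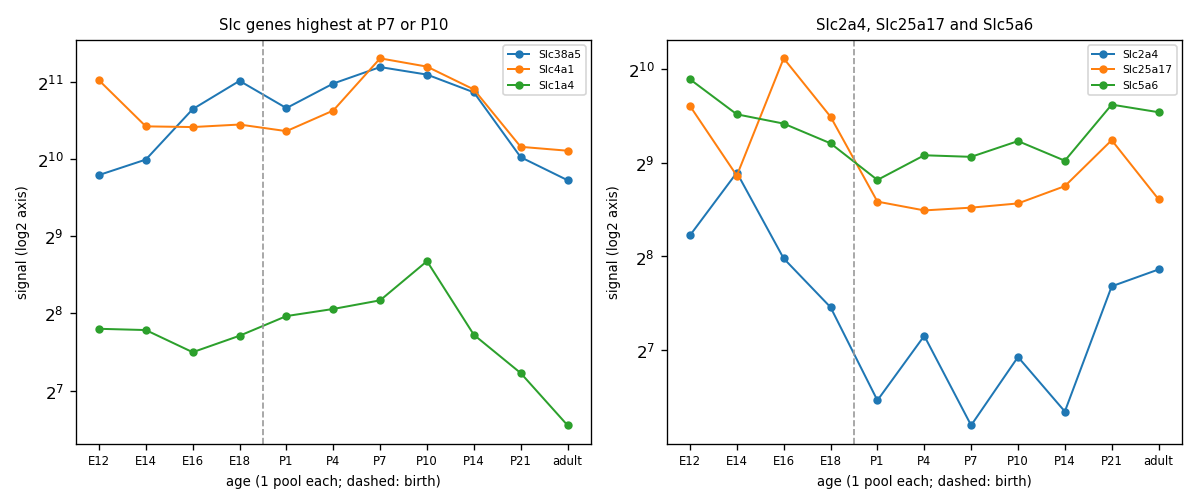
Signal (log2 axis) over the 11 ages for Slc38a5, Slc4a1 and Slc1a4 (left) and for Slc2a4, Slc25a17 and Slc5a6 (right), with 1 point per pool. The 3 genes on the left peak at P7 or P10 and are lowest in the adult, and Slc2a4 on the right is lowest at P7.

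Of 12 mitochondrial carriers none was called higher after birth, 1 was lower and 11 did not pass, with a median difference of 0.00 (log2). The gene that fell, Slc25a17, belongs to the family by sequence but carries cofactors across the peroxisome membrane. Its signals were 778, 465, 1105 and 718 before birth and 359.7 to 604 after it (median 384). E14 and P21 overlapped, and the difference was -0.84 ± 0.22 (adjusted p = 0.0159, and 0.0527 without E12). Slc25a4 and Slc25a5, which exchange ADP and ATP across the inner mitochondrial membrane, were the 2 solute carriers that fell along the age order (adjusted p of 0.00662 and 0.00807), in which 22.1% of all genes rose and 19.7% fell. Slc25a4 stood at 4125, 4091, 3882 and 2335 before birth and at 2188 to 3229 after it (median 2491), and E18 lay within the postnatal range. Slc25a5 kept to 4929 to 6042 up to P7 and then went down to 3009.9 in the adult. With quantile normalization the adjusted p of the Slc25a5 line was 0.0565.

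The summed cell cycle genes stood at 42694 at E12, 14097 at E18, 22027 at P4 and 6406 in the adult. At these ages Slc25a4 was at 4125, 2335, 2647 and 2226, and Slc25a5 at 5321, 5538, 4929 and 3009.9. The part of dividing cells in the fall of the 2 carriers was not tested. All 5 of their probe sets had lower postnatal than embryonic means, by -0.36 to -0.52 (log2). These sets are marked as shared within a gene family, so the signals of the 2 genes are not independent. Of the other mitochondrial carriers, the ornithine carrier Slc25a15 went from 517 at E12 to 247 at P1 and 308 in the adult. Its spline was called (adjusted p = 0.0222), but not without E12 (0.294) or without E14 (0.0616). The citrate carrier Slc25a1 and the dicarboxylate carrier Slc25a10 differed by 0.06 ± 0.11 and 0.06 ± 0.13 between eras. In the groups with 1 measured gene, the lactate and pyruvate carrier Slc16a1 (-0.12 ± 0.20) and the vesicular carrier of GABA and glycine Slc32a1 (-0.37 ± 0.21) did not pass (adjusted p of 0.68 and 0.198).

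The course over all ages added to the comparison of eras. Along the age order 20 solute carriers rose (29%, against 22.1% of all genes) and 2 fell (2.9%, against 19.7%), and the spline was called for 25 (36.2%, against 42.2% of all genes). Of these, 10 were called in all 3 fits, 12 on the line but not between eras, 5 by the spline alone, and 37 of the 69 in none. The matching shares of all genes are not given here. The 5 called by the spline alone were Slc38a5, Slc4a1, Slc1a4, Slc5a6 and Slc25a15. Slc38a5, a carrier of glutamine and other nitrogen-rich amino acids, went from 888 at E12 to 2341 at P7 and was back at 847 in the adult (adjusted p = 0.00198), and this call held under every alternative run. Slc1a4, the alanine, serine and cysteine carrier, kept to 181 to 223 before birth, reached 409 at P10 and stood at 93.7 in the adult (adjusted p = 0.00133). It too was called under every alternative run, but no embryonic age was above the chip median.

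Slc4a1, the anion exchanger of the red cell membrane, had signals of 2079, 1374, 1366 and 1397 before birth, 1317 at P1, 1584 at P4, 2532 at P7, 2351 at P10, 1915 at P14, 1144 at P21 and 1104 in the adult. E12 and the pools of P7 and P10 were highest. The spline was called (adjusted p = 0.00956), with 0.07 without both E12 and P7 and 0.0581 with the mean of its probe sets, since the second probe set ran between 692 and 1096 and did not follow the first (correlation of -0.002 over 11 ages). Alas2, the enzyme that starts haem synthesis in red cell precursors, was also highest at P7 and P10, at 7606 and 8710 against 1789 to 5837 at the other ages, but was chosen after its values were seen. Hbb-b2, a beta globin also chosen after its values were seen, was highest at P7 (18395) and stood at 5717 in the adult. Ank1 and Car1 ran differently and were highest at E18 (906 and 349). Hba-a1, an alpha globin, was listed at 0 at P4, P7, P10 and P14, where Hbb-b2 stood at 12331 to 18395. The values of Hba-a1 were therefore not read as a course. The summed signal of 8 red cell markers, Hba-a1 included, was 22042 to 57383 over the embryonic and 10536 to 27643 over the postnatal ages. The highest sum was at E12, the highest postnatal sum at P7 and the lowest in the adult. After birth 2 of the 8 were lower and none was higher. The 2 were the globin genes Hba-x and Hbb-y, at 11102 and 8761 at E12 and at 313 and 27.5 in the adult. The other 6, with Alas2 and Ank1 among them, did not pass, so the sum does not stand for every red cell gene. How far red cells enter the Slc4a1 course was not tested.

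**Figure D5:**
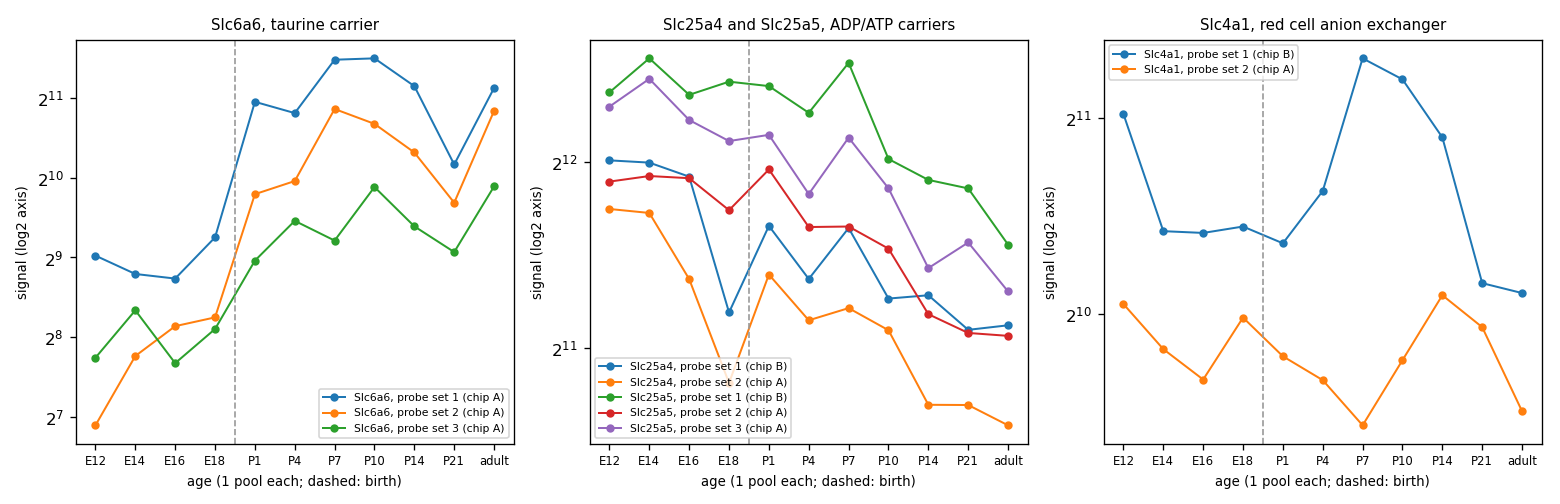
Signal (log2 axis) of each kept probe set over the 11 ages for Slc6a6 (left), Slc25a4 and Slc25a5 (middle) and Slc4a1 (right), with 1 point per pool. The 3 sets of Slc6a6 step up together at birth and the 5 of the ADP/ATP carriers are lower in the adult than at E12, while the 2 of Slc4a1 differ at P7.

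The phase of alveolar septation, P4 to P14, was set against the 5 ages before and the 2 after. No gene passed both differences in limma, which is 0% of the 4130 tested and 0 of the 69. At an unadjusted p under 0.05 in both, 75 of the 4130 genes passed, with 2 of the 69 solute carriers, Slc38a5 and Slc4a1, among them. The second probe set of Slc4a1 did not follow the first, as described above. The highest pool was E12 for 12 of the 69 genes (17.4%, against 17.7% of all genes), the adult for 11 (15.9% against 13.6%), P21 for 10 (14.5% against 12%), P10 for 9 (13% against 5.86%) and P7 for 7 (10.1% against 7.05%). E14 was the highest pool for 2 (2.9% against 12.2%).

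Single steps have no test, because 1 pool is set against 1 pool. The shares of all genes given here count both directions together, so the direction of the solute carriers cannot be set against them. From E14 to E16, 5 solute carriers (7.25%) went up at least 2-fold and none went down, against 6.2% of all genes. From E16 to E18, 6 (8.7%) went up and none went down, against 14.3%. The 6 were Slc10a6 (2.75-fold), Slc31a1, a copper importer (2.08-fold), Slc39a3 (2.14-fold), Slc44a4 (2.2-fold), the sodium and bicarbonate carrier Slc4a5 (3.94-fold) and the glycine carrier Slc6a9 (from 1887 to 3776). From E18 to P1, Slc6a6 and Slc23a2 were the 2 that went up, and Slc32a1 (395 to 196), Slc39a3 (332 to 144) and Slc4a5 (401 to 183) were the 3 that went down, against 7.29% of all genes. At E14, Slc25a44 alone had gone down against the age before (3.05% of all genes), and at P4 it was Slc10a6, Slc31a1 and Slc39a4 that had (3.83%). Slc44a4 and Slc35a4 were lower at P7 than at P4 (2.54%), Slc44a4 and Slc12a7 were higher at P10 than at P7 (3.24%), and Slc10a6 and Slc35a4 were higher at P14 than at P10 (3.12%). At P21, Slc2a4 had gone up and Slc35a4 down (4.87%), and Slc30a4 and Slc46a1 were lower in the adult than at P21 (5.45%). Slc39a3 was highest at E18, and Slc4a5 was at 401 there and again at 392 in the adult.

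Many calls depended on the era to which E18 was counted. With the ages divided between E16 and E18, so that E18 counted with the later pools, 20 solute carriers were higher and 5 lower, against 23.4% and 21% of all genes. Of the 15 genes called at birth 13 were called again, all but Slc35e4 and Slc35b1, while 9 were added as higher and 3 as lower. Among those added were Slc10a6 (1.73 ± 0.59, adjusted p = 0.0301), Slc39a4 (1.48 ± 0.39, adjusted p = 0.00867), Slc11a2 (1.18 ± 0.31, adjusted p = 0.00821) and Slc31a1 (0.79 ± 0.21, adjusted p = 0.00817) of the metal and steroid carriers. Slc25a4 was added as lower (-0.65 ± 0.15, adjusted p = 0.00381). Slc29a1 and Slc1a5 had larger differences in this division (2.02 and 0.85) than at birth, and Slc6a6 a smaller one (1.95).

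Other transport genes were counted beside the solute carriers. For comparison, 16.8% of all genes tested were higher after birth and 14.2% lower. Of 17 subunits of ion-pumping ATPases 7 rose after birth and none fell, among them Atp2a3 (1.59 ± 0.40, adjusted p = 0.0142) and Atp2a2 (1.45 ± 0.19, adjusted p = 0.00118), which pump calcium into the endoplasmic reticulum, and Atp6v1a of the proton pump (1.42 ± 0.24, adjusted p = 0.00325). Of 11 ABC transporters 3 rose and 1 fell, and of 4 members of carrier families without an Slc symbol none was called. Among 12 partners and regulators 4 rose and 3 fell. Sgk1, a kinase that raises the surface level of sodium channels and several carriers, had the largest difference, with signals of 63.1, 84.2, 72.2 and 185 before birth and 698 to 1601 after it (3.38 ± 0.28, adjusted p = 5.4e-05). Emb, the chaperone of lactate carriers, rose by 1.59 ± 0.34 (adjusted p = 0.00782), and Hk2, the hexokinase that traps glucose, fell from 531 to 1239 before birth to 100.5 to 451 after it (-1.86 ± 0.38, adjusted p = 0.00693).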

How the data were processed

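The authors deposited linear intensities (1 value for a probe set on an array) from 22 Affymetrix arrays (2 chips, 11 ages, 1 pool each). Per the deposited values each array had been scaled as a whole, with trimmed means of 500.1 to 500.2 on chip A and 498.3 to 498.9 on chip B. The method that summarised the probes was not given in these sources. Signals under the 25th percentile of a chip (72.3 and 47.3) were set to it, and log2 of the deposited intensity was taken. Probe sets with 1 symbol in the platform annotation were kept where at least 2 ages lay above the chip median (250.3 and 177), and the set with the highest mean stood for a gene, leaving 4130 of 6118 genes. All 69 solute carriers kept matched the RefSeq gene table with the same symbol.

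Tests were two-sided in limma 3.58.1 (R 4.3.3) and checked on simulated data: 7 postnatal against 4 embryonic ages, a line on age order, a natural spline with 3 degrees of freedom, and P4 to P14 against earlier and later ages. Errors with ± are limma's SE. Ages are not replicates, neighbouring ages resemble each other and the pools are few, so p-values may be too small. Genes called in any of these fits could be named, with the 2 largest differences of a role group without calls, 2-fold steps around birth, and genes nearest the filter. From each other list the called genes with the largest differences were named, and Alas2, Acta1, Hba-a1, Hbb-b2, Slc20a1, Slc25a1 and Slc25a10 were chosen after their values were seen. Role groups follow the family number. Members and lists were chosen with earlier results of these data known.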

Additional observations from a re-analysis of the deposited data

Results flagged for a closer look

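In 5 of 64 era groups tested, from 32 called genes, 1 pool lay far from the others of its era, and chance alone flags about 1 in 20 groups. Slc1a5 stood at 1221.2 at E18, against 712 to 759 at the other embryonic ages. Slc25a4 stood at 2335.4 at E18, against 3882 to 4125. Slc4a5 stood at 400.8 at E18, against 102 to 126. Slc4a1 stood at 2079.2 at E12, against 1366 to 1397. Slc25a17 stood at 604.2 at P21, against 359.7 to 430.3 at the other postnatal ages. The cause was not tested for any of them.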

How the results depend on the processing

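No result reversed under any alternative run. The counts between eras depended on single pools: leaving out 1 age gave 6 to 21 genes higher and 0 to 5 lower, and 2 to 4 falling on the line. Shares of all genes with an age left out are not given. With E18 counted among the later pools, 20 were higher and 5 lower. Without both E12 and P7, chosen after seeing the data, 7 were higher, 0 lower, 13 rose along the age order and 15 were called by the spline. With no filter 107 solute carriers were tested, and 5 fell on the line. With at least 6 ages above the median 58 were tested, and 1 was lower between eras. Slc2a4, with 5 ages above the median, was not among the 58. Between eras these 2 settings called 12.1% and 22.4% of the solute carriers, against 18.5% and 31.7% of all genes. Slc6a6, Slc23a2 and Slc22a23 were called between eras under all 20 alternatives. The median difference of all genes was -0.03 (log2) with quantile normalization, against 0.01 as reported. A chip lot or scan batch as a block was not run, because the settings files used here give none. No paired analysis was possible because each age has 1 pool. Signals near the floor limit Slc23a2, Slc35e4, Slc10a6, Slc11a2 and Slc44a4, whose differences depend on it.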
